A study of Saccharomyces cerevisiae with 26 samples.

Results

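Acetylation of lysine 9 of histone H3 (H3K9ac) was followed at the starts of yeast genes across the reductive building (RB) phase of the metabolic cycle, and the gene starts that gained most of it between early and late RB are described here. The members were chosen by measured values: for each gene the mean H3K9ac signal of position bins 11 to 20 at time point 4, plus 0.05, was divided by the same at time point 3, and the 300 highest log2 ratios of 6008 genes (4.99%) were taken. Their ratios are therefore given as a description with no test, while RNA was not used in the choice and is tested. Per the labels, early RB is time point 3 and late RB is time point 4; the oxidative phase (OX) comes before, at time points 1 (early) and 2 (late), and reductive charging (RC) after, at time point 5. RNA was sequenced at all 5 from wild-type CEN.PK yeast and from CEN.PK TAF14[W81A] yeast, in 10 groups of 2 libraries. H3K9ac was measured by ChIP-seq in wild-type CEN.PK at time points 3 and 4, with 1 library each. All cultures were grown continuously so that they cycled. It is not stated whether the replicates came from separate cultures, so p-values measure only the spread between these samples.

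Budding yeast in continuous culture at low glucose synchronise their oxygen use. Genes for making ribosomes peak when oxygen is consumed, and genes for stress resistance and storage rise as respiration stops. H3K9ac is laid down near the starts of active genes by Gcn5-containing acetyltransferase complexes that use acetyl-CoA, and is read by bromodomains and by YEATS domains. TAF14 is a YEATS domain protein shared by several transcription and chromatin remodelling complexes, and the W81A substitution changes a tryptophan of its acyl-lysine pocket. The purpose of the series, by its title, was to relate histone crotonylation to metabolism and gene expression. The crotonylation and total H3 libraries were not analysed here. Without them, more acetylation per nucleosome and more nucleosomes cannot be told apart.

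The rule favours starts that were low at time point 3 and bins 11 to 20 over their neighbours, so both are given as a description of the members. Over bins 11 to 20 the median member had an H3K9ac signal of 0.64 at time point 3 and 0.842 at time point 4, on the deposited scale, while the median of all genes was 0.897 and then 0.823. Members' log2 ratios ran from 0.28 to 1.23 with a median of 0.35, against a median of -0.09 over all genes, of which 33.5% had a ratio above 0. At time point 3, 108 members lay under the 10th percentile of all genes (0.543) and 28 lay above the 90th percentile (1.49). At time point 4, 64 members lay above the 90th percentile (1.39). Members thus held many poorly acetylated starts and, in smaller number, strongly acetylated ones.

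**Figure D1:**
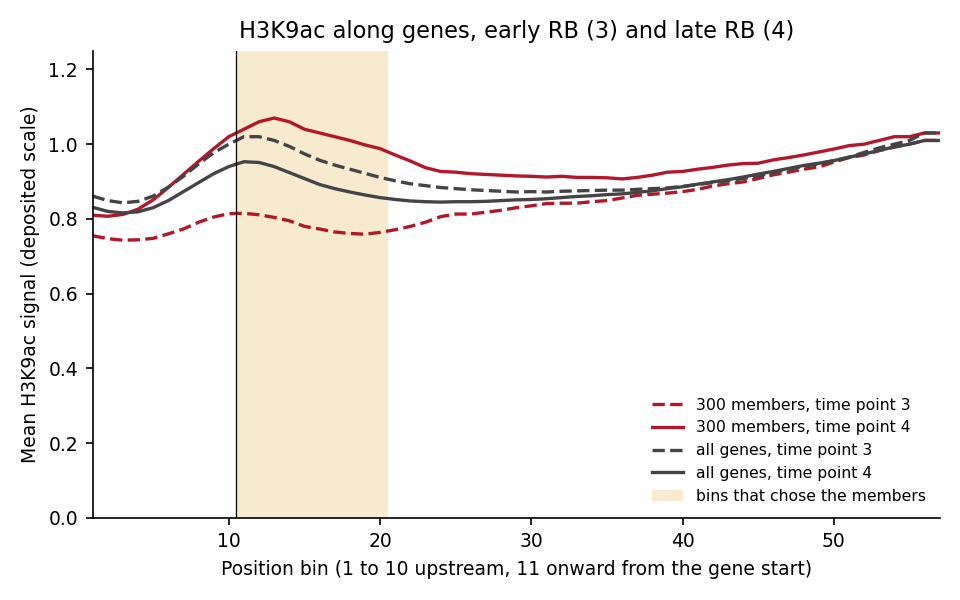
Mean H3K9ac signal (vertical axis, deposited scale) by position bin (horizontal axis) for the 300 members and all 6008 genes at time points 3 (dashed) and 4 (solid); shading marks the bins that chose the members. The members' mean at bin 13 is 0.804 at time point 3 and 1.07 at time point 4, and the 4 lines come together toward the gene end.

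The layout of the bins is not stated and was inferred. Neighbouring genes share positions, and their values there differed by a mean of 0.0261 over 5407 positions under a layout of 10 upstream bins of 20 bases and 50 scaled bins over the gene. The other layouts tried differed by 0.0732 to 0.335. Bins 11 to 20 are then the 5′ portion of the gene body. The upstream bins had a median log2 ratio of 0.15 and were above 0 at 224 members, against 37.3% of all genes. The rest of the gene had a median of 0.08. Both stretches adjoin the bins that chose the members, so gains there follow at least in part from the choice. At bin 57, the last bin complete at both time points, the members' mean signal was 1.01 and then 1.03.

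**Figure D2:**
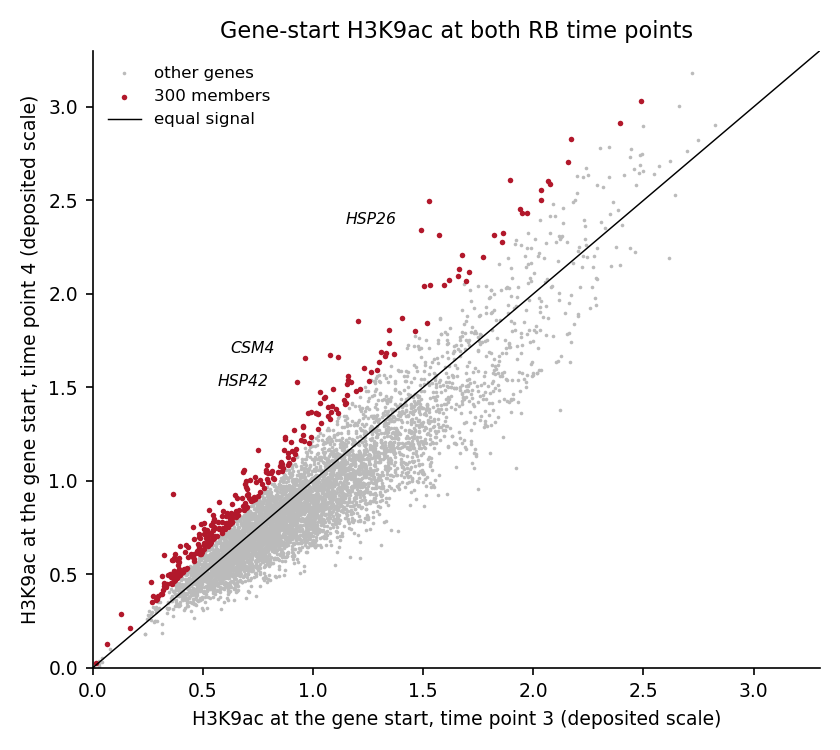
H3K9ac over bins 11 to 20 of each gene at time point 3 (horizontal) against time point 4 (vertical), both on the deposited scale, with members in red and the line of equal signal. Members lie above the line because they were chosen for it, and they are found at weakly and at strongly acetylated starts, with HSP26, which went from 1.49 to 2.34, among the latter.

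The highest ratio belonged to YDL158C, whose signal went from 0.366 to 0.929. Among members with a standard name the order began with URE2, a regulator of nitrogen catabolite repression, at a log2 ratio of 0.81. It was followed by CSM4 (0.75), needed for chromosome movement in meiosis, and by the small heat shock protein gene HSP42 (0.69). RPS12, for a small-subunit ribosomal protein, had 0.68, GAL2, for galactose uptake, 0.67, and SSA3, for an Hsp70 chaperone, 0.65. HSP26, for a second small heat shock protein, had 0.63. These genes differed widely in level. RPS12 went from 0.266 to 0.457, which was still below the 10th percentile of time point 3, while HSP42 went from 0.926 to 1.53. At the threshold GLO4, YAR075W and IRC9 were the last members, each with 0.28, and SPO13, HSP10 and COQ5 were the first genes outside it, each with 0.27.

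In RefSeq's annotation of build R64, which has the sequence of sacCer3, HSP42 lies on chromosome IV at 806621 to 807748, SSA3 on chromosome II at 84499 to 86448 and HSP26 on chromosome II at 382030 to 382674. YBR071W, the gene before HSP26 at 380411 to 381046, was also a member, and its signal at time point 4 was 1.85, a log2 ratio of 0.60. Among the 267 members with a RefSeq gene, 2 pairs of windows were within 500 bases of each other, CTP1 with YBR292C and NHP2 with CWC2. The 33 members without a RefSeq gene could not be checked, and such pairs were not counted for other genes. Members were found on all 16 chromosomes. Of the members with a position, 20 (7.49%) lay within 20000 bases of the outermost gene of a chromosome, against 3.72% of all genes. PAU13 and PAU14, of the subtelomeric seripauperin family, were among the highest ratios, but PAU13 rested on a signal of only 0.0653 at time point 3. Members had a median gene length of 1030 bases against 1240 for all genes. In all, 71 members (23.7%, all genes 16.2%) had no standard name, and 33 had no RefSeq gene, as 4.34% of all genes did.

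RNA was compared in scaled reads, which are reads recovered for each library from the deposited levels and put on the authors' scaling. They are not divided by gene length, so they compare samples and not genes. Libraries held 2022113 to 3749675 reads over the genes recovered in every group, and 298 members could be tested with limma, all but HSP26 and OLE1. In wild type from time point 3 to 4, 95 of 298 members rose (31.9%), where 22.8% of all 5983 genes tested did, and 39 fell (13.1%), where 20.8% of all genes did. The members' median log2 change was 0.14, against 0.00 over all genes. The set at the other end, the 300 genes with the lowest H3K9ac ratios, had 42 genes that rose and 98 that fell of 298. Across all 5983 genes, the H3K9ac ratio and the RNA change from 3 to 4 had a Spearman correlation of 0.124. Within the 298 members it was -0.0696. Both are descriptions over genes that share the same libraries. Since these are bulk cultures, fewer cells expressing a gene and less RNA per cell cannot be told apart.

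H3K9ac is set beside these RNA classes as a description. The 95 that rose had a median signal of 0.908 at time point 3 and 1.22 at time point 4, and their upstream bins gained too, at 82 of 95 (86.3%). The 39 that fell went from a median of 0.494 to 0.668, and 20 of them (51.3%) gained upstream. The 164 not called went from 0.594 to 0.782, and 120 of them (73.2%) gained upstream. Over all genes the upstream ratio was above 0 at 37.3%. The upstream bins adjoin those that chose the members and come from the same libraries. A member share above that of all genes therefore follows at least in part from the choice. Upstream shares by RNA class were not counted over all genes, so the differences between the classes have no background here. The members that were not called included 53 of the 71 without a standard name.

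**Figure D3:**
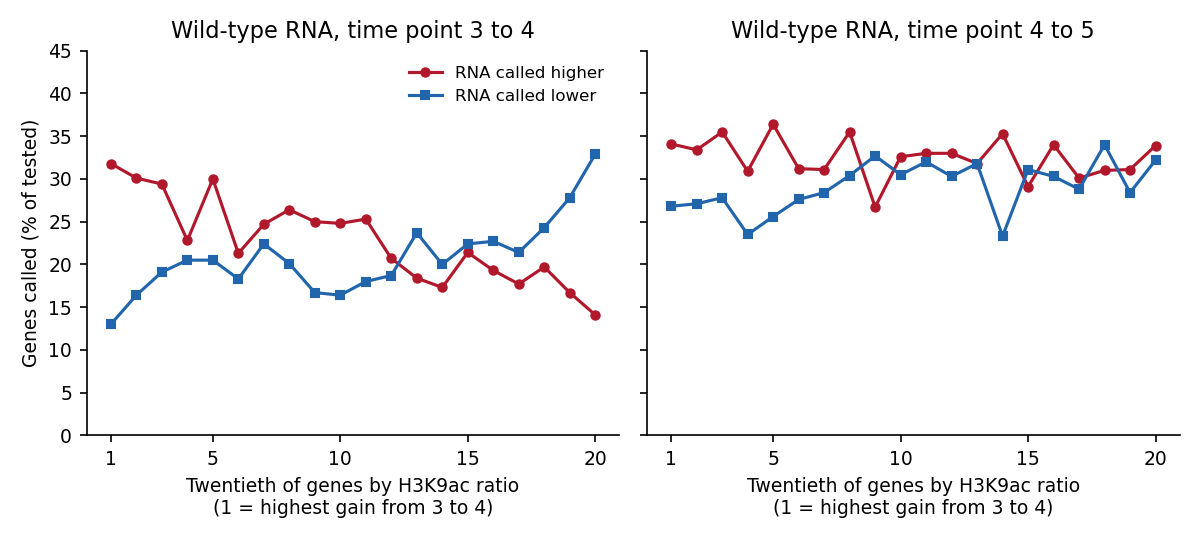
All genes in 20 equal groups by H3K9ac ratio, with group 1 the highest (horizontal axis), against the percent of tested genes whose wild-type RNA was called higher (red) or lower (blue) from time point 3 to 4 (left) and from 4 to 5 (right). On the left, the percent called higher goes from 31.8 in group 1 to 14.1 in group 20, while on the right it is 34.1 and 33.9.

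From time point 4 to 5 the members as a whole were near the background: 102 rose (34.2%, all genes 32.5%) and 79 fell (26.5%, all genes 29.1%). Over both steps, from time point 3 to 5, 143 members rose (48.0%), against 32.1% of all genes, and 50 fell (16.8%), against 24.7%. Members that rose at both steps numbered 23 (7.72%, all genes 3.41%). A further 40 rose and then fell (13.4%, all genes 12.8%), 28 fell and then rose (9.4%, all genes 12.4%), and 51 were not called at the first step and rose at the second (17.1%, all genes 16.6%). At time point 3 the median deposited wild-type level of the members, a log2 level per gene length, was 5.40 against 6.39 for all genes, and at time point 5 it was 6.04 against 6.44. The time point of the highest wild-type level was 4 for 93 members (31.0%, all genes 27.7%) and 1 for 119 (39.7%, all genes 39.6%).

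Of the 300 members, 58 belonged to at least 1 of 18 gene lists. Heat shock proteins and chaperones gave 9 of the 27 genes measured (33.3%), ribosome biogenesis 15 of 86 (17.4%), glucose uptake and phosphorylation 6 of 27 (22.2%), meiosis and sporulation 5 of 42 (11.9%) and cytosolic ribosomal proteins 10 of 134 (7.46%). Members were 4.99% of all genes. Nearly all ribosome biogenesis and ribosomal protein members had a low signal at time point 3, which the rule favours. Their shares cannot be told apart from that selection. Oxidative and general stress gave 3 of 34 (8.82%), amino acid synthesis 3 of 65 (4.62%) and trehalose and glycogen 2 of 21 (9.52%). The respiratory chain and ATP synthase gave 2 of 39 (5.13%), autophagy 1 of 32 (3.12%), gluconeogenesis 1 of 19 (5.26%) and amino acid permeases 1 of 29 (3.45%). No member came from the lists of beta-oxidation (24 genes), the TCA cycle (17), the proteasome (34), sodium and potassium transport (16) or histones (10). The same held for acetyltransferases, deacetylases and acyl readers (38). These lists are small beside a share of 4.99%, so having no member says little about them. The chaperone list as a whole had a median H3K9ac log2 ratio of 0.16 and ribosome biogenesis 0.02. The ribosomal protein list was at -0.15 with 40 of 134 genes above 0, beside the 33.5% of all genes above 0.

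**Figure D4:**
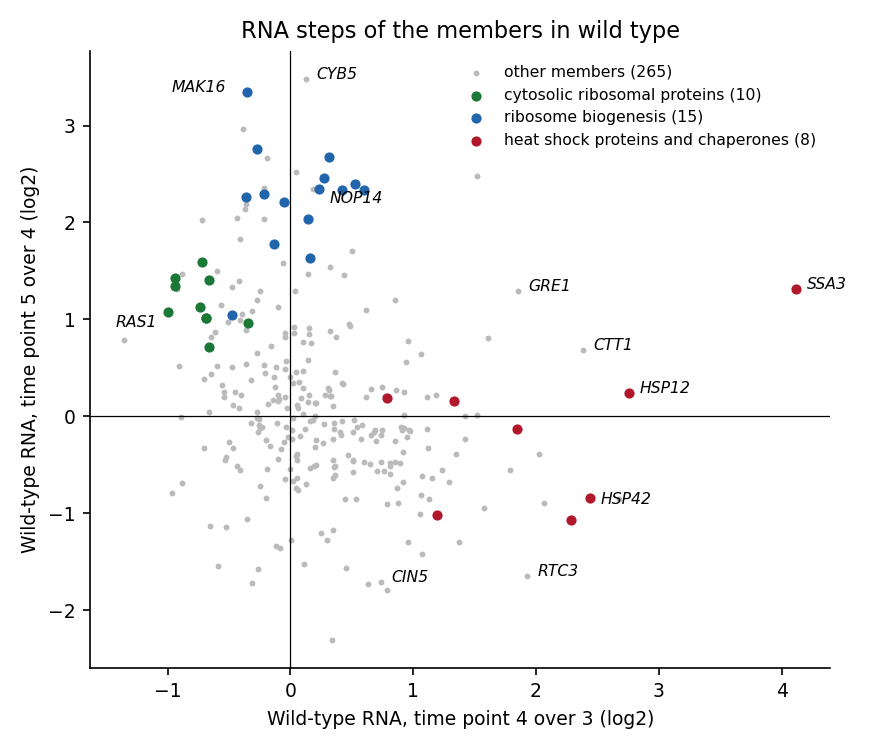
Wild-type RNA change of the 298 tested members from time point 3 to 4 (horizontal, log2) and from 4 to 5 (vertical, log2), coloured by gene list. The 8 chaperone genes lie to the right of 0, the 15 ribosome biogenesis genes lie above 0 with small first steps, and the 10 ribosomal protein genes lie at the upper left.

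Chaperone members gained RNA at the same step as H3K9ac. All 8 tested rose from time point 3 to 4, with a median log2 change of 2.06, as did all 26 tested genes of the list (median 1.64). SSA3 had 439 and 370.4 scaled reads in the libraries of time point 3, a mean of 7034 at time point 4 and a mean of 17445 at time point 5. Reads of single libraries could not be separated in the last 2 groups, so their means entered the fit. The SE of SSA3 therefore holds no spread between the libraries of those groups. The log2 change of SSA3 was 4.12 ± 0.192 (SE of limma's fit, adjusted p = 1.8e-09). HSP42 had 2388 and 2250.1 scaled reads at time point 3 and a mean of 12565 at time point 4, a change of 2.44 ± 0.237 (limma, adjusted p = 2.8e-06). CUR1, which sorts misfolded proteins, had 168 and 165 scaled reads at time point 3 and 611 and 589.5 at time point 4, with no overlap, a change of 1.84 ± 0.133 (limma, adjusted p = 1.6e-08). HSP12, for a small membrane-protecting stress protein, rose by 2.76 ± 0.136 and HSP82, for Hsp90, by 2.28 ± 0.228. HSP26 was not in the fit, and its deposited log2 levels were 13.39, 15.79 and 16.03 at time points 3, 4 and 5.

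Relative to each gene's own mean over the wild-type cycle, the median deposited log2 level of the 9 chaperone members was -1.85 at time point 1, -0.37 at time point 3, 1.89 at time point 4 and 1.12 at time point 5. The genes parted at the last step. HSP42, HSP82 and HSP78, for a mitochondrial disaggregase, fell from time point 4 to 5, by 0.84, 1.07 and 1.02 on the log2 scale, while SSA3 rose by 1.31. The 3 members from the oxidative and general stress list, CTT1, GRE1 and PRX1, also rose from time point 3 to 4. So did 31 of the 34 genes of that list. CTT1, the cytosolic catalase, had 215 and 149 scaled reads at time point 3, 949 and 924 at time point 4 and 1444 and 1559 at time point 5. GRE1, for a stress-induced hydrophilin, had 60.6 and 60.4, then 209 and 234, then 527 and 562.5. In both genes the libraries of each time point lay above those of the one before. The first step was 2.38 ± 0.278 for CTT1 and 1.85 ± 0.222 for GRE1 (limma, adjusted p = 4.2e-06 and 5.5e-06). The CTT1 rise from time point 4 to 5 (0.68) lost its call without any 1 of the wild-type libraries of those time points. PRX1 fell at that step (-0.60; limma, adjusted p = 0.0014). Of the 34 genes of the list, 24 fell and 6 rose there.

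Several members rose into late RB and fell again into RC. RTC3 had 808 and 695 scaled reads at time point 3, 2890 (2889.7) and 2812 at time point 4, and 919.9 and 896 at time point 5. The change of RTC3 was 1.93 ± 0.157 and then -1.65 ± 0.157 (limma, adjusted p = 7.5e-08 and 1.1e-07). CIN5, for a bZIP transcription factor of the stress response, went up by 0.74 ± 0.12 and then down by 1.71 (log2 change -1.71 ± 0.12; limma, adjusted p = 0.00011 and 2.8e-09). MAL11, for an alpha-glucoside transporter, went up by 2.67 ± 0.182 and then had a change of -0.86 ± 0.182. Of the 6 members of the glucose list, 3 rose from time point 3 to 4 and 4 fell from 4 to 5, while of the 26 tested genes of the list 7 rose and 5 fell at the first step and 14 fell at the second. HXT3, a low-affinity hexose transporter, went from 3630 (3629.6) and 3605 scaled reads to 6064 and 6029.7. Its later fall lost its call under upper-quartile scaling and without either wild-type library of time point 4 or library 1 of time point 5 (limma, highest adjusted p = 0.09). That of HXT8, from the same family, lost its call without library 2 of time point 4 or either library of time point 5 (limma, highest adjusted p = 0.12). Among meiosis genes ZIP1, for a protein of the synaptonemal complex, and CRR1, for a spore wall enzyme, rose by 0.86 ± 0.139 and 1.29 ± 0.177. The other 3 did not pass the test. In the whole meiosis list 14 of 42 genes rose and 3 fell.

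Ribosome biogenesis members gained H3K9ac while their RNA was low, and their RNA rose at the next step. Relative to each gene's own mean over the wild-type cycle, their median deposited log2 level was 3.49 at time point 1, 0.47 at time point 2, -2.12 at time point 3, -2.07 at time point 4 and 0.20 at time point 5. Of the 15, 2 rose and 2 fell from time point 3 to 4, with a median change of 0.15, and all 15 rose from time point 4 to 5, with a median of 2.33. The whole list did the same (85 of 86 rose, median 2.26), so the later rise was not particular to the members. NOP14, for a small-subunit processome protein, had an H3K9ac signal of 0.356 and then 0.456. Its libraries held 39.4 and 42.4 scaled reads at time point 3, 45.6 and 50.8 at time point 4, and 254 and 245 at time point 5. The libraries of time point 5 lay far above the others, and the change from 4 to 5 was 2.35 ± 0.12 (limma, adjusted p = 6.3e-11). RRP5, needed for both subunits, changed by 2.04 ± 0.0952 and NMD3, the export adaptor of the large subunit, by 1.78 ± 0.105. MAK16, a large-subunit assembly factor, had the second largest rise among the tested members, 3.34 ± 0.134. The 4 calls from time point 3 to 4 (MAK16 and SSF2 lower, DRS1 and NOP4 higher) rest on few reads. Only the NOP4 call was kept under all 8 alternatives tried for it. Those of MAK16 and DRS1 were lost when the SE was held no smaller than the counting error, and that of SSF2 without wild-type library 1 of time point 4 (adjusted p = 0.14). Members outside this list with the same course included CYB5, for cytochrome b5, and RVB1, for an ATPase of chromatin remodellers and snoRNP assembly (0.85 ± 0.0767). CYB5 had 68.3 and 98.7 scaled reads at time point 4 and 949.7 and 907 at time point 5 (3.48 ± 0.139, limma, adjusted p = 7.6e-12). UTP6, LTV1, LCP5 and SAS10 were also outside the list and rose from time point 4 to 5 by 2.96, 2.52, 2.35 and 2.36. SAS10 is a small-subunit processome gene as NOP14 is, so the list is not complete.

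RNA of the ribosomal protein members fell while their starts gained H3K9ac. All 10 fell from time point 3 to 4, with a median of -0.71, and all 10 rose from 4 to 5, with a median of 1.10. Of the 129 tested genes of the family, 113 fell at the first step and 124 rose at the second. All ribosomal protein members but RPS3 (0.552) had an H3K9ac signal under the 10th percentile of time point 3 (0.543). The rule favours such low starts. RPS22A had an H3K9ac signal of 0.366 and then 0.482, and its libraries held 765 and 852.5 scaled reads at time point 3, 411 and 427.5 at time point 4, and 1116 and 1020.1 at time point 5. The libraries of time point 4 lay below all others, and the change was -0.94 ± 0.0879 and then 1.35 ± 0.0879 (limma, adjusted p = 6.4e-07 and 2.4e-09). RPL8A changed by -0.94 ± 0.101 and then 1.43 ± 0.101. Most of these genes, though not all, have a near-identical copy, as do HSP82 and the PAU genes, and SSA3 has less similar relatives. How reads shared by copies were counted is not stated, so their values are uncertain. Other members that fell were RAS1, for a GTPase of the cAMP pathway, which went from 171 and 176 scaled reads to 77.0 and 58.5 (-1.35 ± 0.116; limma, adjusted p = 1.4e-07), and SCW10, for a cell wall glucanase-like protein (-0.96 ± 0.078).

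Of the 39 members that fell from time point 3 to 4, 5 fell again (1.68% of members, all genes 2.89%) and 6 were then not called (2.01%, all genes 5.43%). SCW10 fell again from time point 4 to 5, by 0.79, and CDC21, for thymidylate synthase, had 189.9 and 213 scaled reads at time point 3, 116 and 139.9 at time point 4, and 54.0 and 61.4 at time point 5. CDC21 fell by 0.65 and then by 1.13 on the log2 scale, and its first step lost its call without wild-type library 1 of time point 4 (limma, adjusted p = 0.055). URE2, highest of the named members by H3K9ac ratio, had 338 and 375 scaled reads at time point 3 and 359 and 362 at time point 4, so the groups overlapped (0.02 ± 0.0881; limma, adjusted p = 0.89).

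The H3K9ac members were then followed in the TAF14[W81A] strain, where the mark was not measured. From time point 3 to 4 in the mutant, 61 of 298 members rose (all genes 11.9%) and 33 fell (11.1%, all genes 11.7%). The size of the step was compared between strains by an interaction contrast. It was smaller or more negative in the mutant for 18 members (6.04%, all genes 2.92%) and larger for 1 (0.336%, all genes 2.11%), SAS10, a small-subunit processome gene, at 0.68 ± 0.172. The 18 became 5 to 13 when single libraries of the 4 groups compared were left out (5 without mutant library 2 of time point 3, 8 without wild-type library 2 of time point 3 or library 1 of time point 4, 9 without wild-type library 2 of time point 4 or either mutant library of time point 4, and 11 without mutant library 1 of time point 3). The SAS10 call was lost without mutant library 1 of time point 3 or 3 other libraries (highest adjusted p = 0.13).

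Chaperone genes were among the 18. Of the 8 tested chaperone members, 4 had a smaller step in the mutant (SSA3, STI1, SSE1 and CUR1), as did 15 of the 26 tested genes of the list. SSE1, the Hsp110 nucleotide exchange factor, had 3893 and 3885 scaled reads at time point 3 in wild type and 6920.5 and 6529 at time point 4. In the mutant SSE1 had 3670.0 and 3963 and then 4065 and 4269.5. The mutant libraries of time point 4 lay between the wild-type libraries of both time points, and the difference of steps was -0.66 ± 0.104 (limma, adjusted p = 0.0018). HCH1, an Hsp90 cochaperone named here after its value was seen, went from 376 and 388 to 1033 and 1013 in wild type and from 641 and 639 to 814 and 716 in the mutant. Its mutant values began higher and ended lower, and the difference of steps was -1.16 ± 0.104 (limma, adjusted p = 4.6e-06). NHP6B, for a high mobility group chromatin protein, likewise started higher in the mutant (1200.0 and 1374 against 755 and 888.5) and ended near the wild-type level (1586 and 1463 against 1594.5 and 1500.0), with a difference of -0.67 ± 0.122 (limma, adjusted p = 0.0037). The calls of SSE1, HCH1 and NHP6B held under each alternative tried for them. Those of STI1 and CUR1 (limma, adjusted p = 0.038 and 0.045) were each lost under 9 of 12 alternatives, which were upper-quartile scaling and the leaving out of any 1 of the 8 libraries compared (highest adjusted p = 0.14 for both).

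The largest called difference was that of CTT1. Its mutant libraries held 51.2 and 64.3 scaled reads at time point 3 and 93.4 and 66.2 at time point 4, all below the wild-type libraries of either time point. The difference of steps was -1.93 ± 0.394 for CTT1, -1.57 ± 0.314 for GRE1 and -1.29 ± 0.271 for SSA3 (limma, adjusted p = 0.0087, 0.0075 and 0.015). These 3 calls lay close to the threshold when single libraries were left out. Without mutant library 2 of time point 3 none of them passed, and the highest adjusted p values over the alternatives were 0.056, 0.055 and 0.083. CTT1 also failed without mutant library 2 of time point 4, and SSA3 without that library or wild-type library 2 of time point 3.

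**Figure D5:**
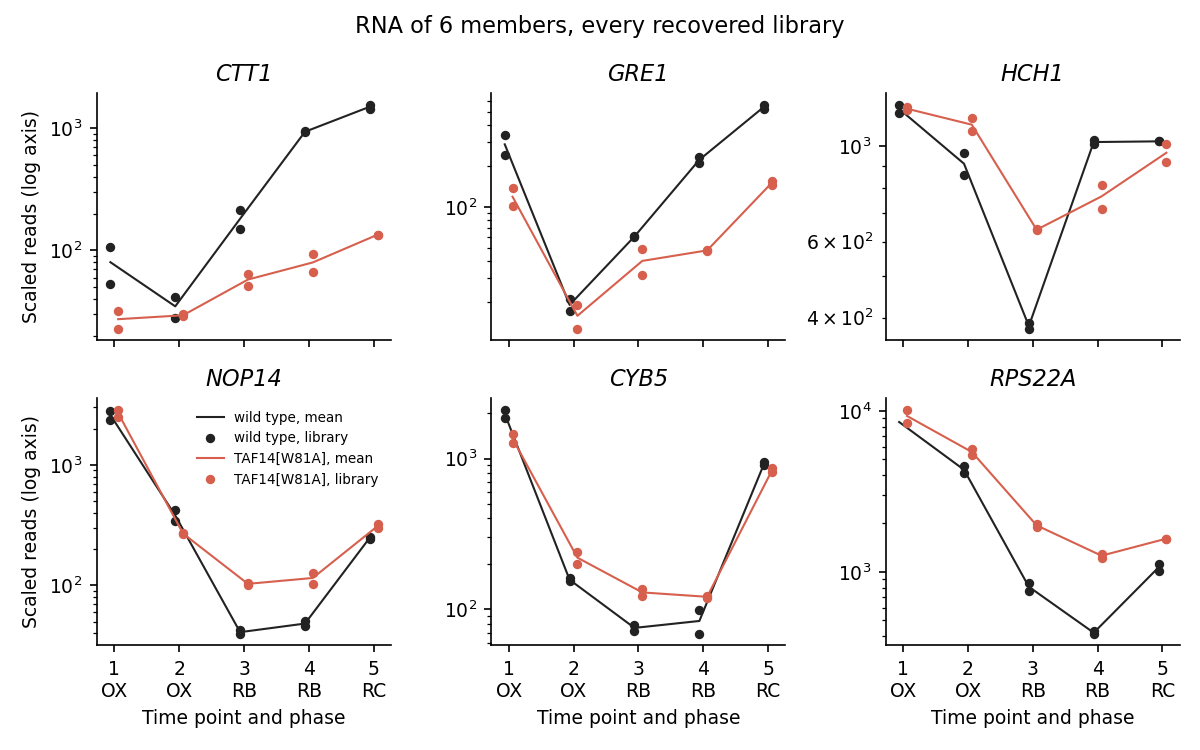
Scaled reads (log axis) of 6 members in each recovered library at time points 1 to 5, with lines through the group means, in wild type (black) and TAF14[W81A] (red); phases are given under the time points. CTT1 and GRE1 climb more in wild type from time point 3 to 4, NOP14, CYB5 and RPS22A are higher in the mutant at time points 3 and 4, and RPS22A has only a mean in wild type at time point 1.

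At time point 4 itself, 81 members were higher in the mutant (27.2%, all genes 25.9%) and 68 lower (22.8%, all genes 21.7%), which is near the background. The direction went with the gene list. All 15 ribosome biogenesis members and all 10 ribosomal protein members were higher in the mutant, with a median of 1.32 on the log2 scale for ribosome biogenesis, and 7 of the 8 chaperone members were lower, with a median of -1.13. The whole lists gave 81 of 86, 127 of 129 and 25 of 26 in those directions. NOP14 had 104 and 127 scaled reads in the mutant against 45.6 and 50.8 in wild type (1.23 ± 0.12; limma, adjusted p = 3.7e-07), and the authors' deposited table has a log2 fold change of 1.12 with an adjusted p of 0.00019. RPS22A was higher by 1.59 and MAK16 by 1.91. FLO11, for the cell surface flocculin, had 469 and 444 scaled reads in the mutant and 143 and 138 in wild type. CTT1 was lowest, at -3.56 (authors' deposited table -3.45), and RTC3 and HSP12 followed at -2.64 and -2.63. RTC3 went from 120.4 and 119.7 to 471 and 443 in the mutant, a difference of steps of -0.01 ± 0.223 (limma, adjusted p = 0.99). At time point 3, 86 members were higher and 43 lower in the mutant by the authors' deposited table, of 291 with an adjusted p. Of all 5950 genes, 1096 were higher and 896 lower.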

How the data were processed

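RNA levels, 1 log2 value per gene, genotype and time point, were deposited by the authors with their own log2 fold changes and adjusted p-values. H3K9ac is a deposited signal per gene and bin whose scale is not stated. BWA, DESeq2, MACS2, deepTools and the build sacCer3 are named in the submitters' processing notes, with no version or role. Of 1048575 lines in the deposited ChIP table, 344 were broken and left out, and 766880 H3K9ac lines were left after repeats were dropped. The linear RNA level times gene length is made up of whole reads from both libraries, each times a factor. The reads were recovered (within 1.15 roundings) at the RefSeq length for 5438 of 6008 genes and at a searched length for 561. With shuffled lengths 0.958% gave whole reads. Recovered libraries carry no replicate letter and are numbered arbitrarily.

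The fit was limma 3.58.1 (trend, R 4.3.3) on log2(scaled reads + 1) of all 20 libraries in 10 groups, with no filter on low values. A gene had at most 10 residual degrees of freedom, beside 6.01 prior ones. The fit tested 5983 genes, with calls at a two-sided Benjamini-Hochberg adjusted p under 0.05. A group with several solutions entered as its mean and added no residual degree of freedom. It was still counted as 2 libraries, so the SE of its comparisons rests on the spread in other groups. The fit was tested on simulated data: it made too many calls for genes whose level in the groups compared is far below their level elsewhere, so an SE no smaller than the counting error was added as an alternative after the data were seen. Tables were made in Python 3.11.15.

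Members and lists were chosen with earlier results of these data known. Named genes, all with standard names, were the 15 highest ratios, the 5 highest and 5 lowest called changes per main comparison with a mean of at least 50 scaled reads, list members, and the 3 genes on each side of the threshold. Genes without standard names, the pairs of close windows, HCH1, NHP6B and SAS10 were named after their values were seen. Alternatives were the pseudocount, a filter, upper-quartile scaling, libraries left out and other rules for the members. Depth covers counting error only. Promoter motifs were not analysed here.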

Additional observations from a re-analysis of the deposited data

Results flagged for a closer look

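The step in RNA from time point 3 to 4 differed between the strains, by the interaction contrast of the limma fit, for 18 members that were lower in the mutant and 1 that was higher. The differences (mutant minus wild type, log2) were -1.93 for CTT1, -1.57 for GRE1, -1.29 for SSA3, -1.16 for HCH1, -1.04 for RTS3, -0.96 for UTP9 and -0.92 for LCP5. Smaller ones were -0.69 for CUR1, -0.67 for NHP6B, -0.66 for STI1 and SSE1, -0.65 for the bromodomain gene BDF2, -0.58 for DSE4 and -0.52 for AIM41. The last were -0.47 for PET10, -0.46 for PER33, -0.43 for GAT2 and -0.42 for STE24, and SAS10 had 0.68. These calls differed in how they held under 12 alternatives. HCH1, NHP6B and SSE1 lost theirs under none, and GRE1 and LCP5 under 1, CTT1 under 2, SSA3 under 3, STE24 and SAS10 under 4, and PER33 and GAT2 under 5. UTP9 and DSE4 lost theirs under 6, BDF2 under 7, AIM41 and PET10 under 8, and RTS3, CUR1 and STI1 under 9. For SSA3, leaving out a wild-type library of time point 4 could not change its estimate, as its single libraries there were not separated. With an SE no smaller than the counting error, 16 and 1 members were called, and UTP9 and LCP5 were no longer among them. RTS3, LCP5, BDF2, DSE4, AIM41, PET10, PER33, GAT2 and STE24 were named after their values were seen.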

How the results depend on the processing

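For the 6 RNA comparisons, counts of members called in each direction stayed within 1.5 times under the pseudocount of 4, the filter at a mean of 10 scaled reads, upper-quartile scaling, the RefSeq members alone and the counting-error SE, with 1 exception: under upper-quartile scaling 2 members, not 1, had a larger step in the mutant. Without single libraries of the groups compared, that count ranged from 0 to 2 and the count of smaller steps from 5 to 13; the cause was not tested. Other counts without single libraries of the groups compared moved less. From time point 3 to 4 in wild type 85 to 91 members rose and 28 to 37 fell. With 150 or 600 members 32.9% or 30.8% rose. Under a ratio pseudocount of 0.5 it was 37.9%, and above the 10th percentile of H3K9ac 38.6%. When members were chosen on all complete bins, which kept 102 of the 300, 24.1% rose and 19.1% fell, near the share of all genes. Of 327 calls of single genes, 59 were lost under at least 1 alternative, and none changed sign. No paired analysis was possible because the recovered libraries carry no replicate letter. H3K9ac has 1 library per time point, so no error can be given for its ratio.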
